A study of Mus musculus with 27 samples.

Results

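The data described here concern Resf1 and Atf7ip, a pair of genes whose products work with the histone methyltransferase Setdb1. They are 2 of the 21998 genes with a value in every library of at least 1 experiment, and they were picked by name with their FPKM (read fragments scaled to transcript length and library size) in all conditions in view. Their levels are therefore given as a description and were not tested. Resf1 stands under its older symbol 2810474O19Rik in the siRNA and inhibitor libraries, and the row that covers the gene was taken in the total RNA libraries.

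RNA was sequenced from Setdb1 cKO iMEFs, immortalized mouse embryonic fibroblasts of 1 recloned line in which 4-hydroxytamoxifen (4OHT) deletes Setdb1. All 12 groups and 27 libraries carry the conditional allele, and no library of a wild-type line was analysed here. The total RNA experiment, with rRNA removed, held untreated cells, cells at day 5 that had received 4OHT for the first 4 days, and long-term KO cells taken more than 2 weeks after 4OHT per the labels, with 3 libraries in each group. The siRNA experiment held siCtrl, siDnmt1, 4OHT + siCtrl and 4OHT + siDnmt1 cells at day 6, with 2 libraries in each group. The inhibitor experiment held untreated cells, cells with 150 nM of the histone deacetylase inhibitor trichostatin A (TSA) for 24 h, cells with 1 µM of the MEK inhibitor PD0325901 for the last 24 h, cells at day 6 after 4OHT, and 4OHT + PD0325901 cells, again with 2 libraries in each group, and its 3 comparisons with untreated cells share the same untreated libraries. Nothing in the labels says that replicates were separate cultures, so p-values measure only the spread between these libraries, which may be technical.

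Setdb1 places trimethyl groups on lysine 9 of histone H3, a mark of silent chromatin that represses endogenous retroviruses in embryonic and somatic cells. Atf7ip (also called MCAF1 or AM) binds Setdb1 directly, keeps it in the nucleus and protects it from degradation. Resf1 is a large nuclear protein found with Setdb1 in mouse embryonic stem cells, where it is needed for full silencing of proviruses.

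Both genes lie on the plus strand of chromosome 6 and are separated by 12.7 Mb. In mm9, Resf1 spans chr6:149257936-149284180 with up to 6 exons in an annotated transcript. Atf7ip spans chr6:136467372-136555898 with up to 15 exons, and a separate entry of the same name with 1 exon lies at chr6:136556350-136559373. The promoter windows of RefSeq, from 250 bases before to 50 bases after the start, are shown because a DNA methyltransferase was depleted in 2 of the groups, and the capitals mark CG dinucleotides. The Resf1 window is chr6:149309164-149309463 and the Atf7ip window chr6:136518601-136518900, both on the plus strand of GRCm38.p6.
Resf1 promoter: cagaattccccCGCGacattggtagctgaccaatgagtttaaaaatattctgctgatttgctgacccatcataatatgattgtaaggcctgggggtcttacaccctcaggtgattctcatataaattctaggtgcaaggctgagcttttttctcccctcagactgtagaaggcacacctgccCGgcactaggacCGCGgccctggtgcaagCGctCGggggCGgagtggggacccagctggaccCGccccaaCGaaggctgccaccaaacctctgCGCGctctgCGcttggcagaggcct
Atf7ip promoter: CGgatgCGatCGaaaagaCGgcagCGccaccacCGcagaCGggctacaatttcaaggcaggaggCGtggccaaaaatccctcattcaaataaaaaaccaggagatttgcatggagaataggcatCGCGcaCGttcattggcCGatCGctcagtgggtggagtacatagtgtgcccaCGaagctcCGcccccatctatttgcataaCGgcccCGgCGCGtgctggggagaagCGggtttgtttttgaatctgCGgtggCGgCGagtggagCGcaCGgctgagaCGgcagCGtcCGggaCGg
The Resf1 window held 13 CG dinucleotides and the Atf7ip window 29, beside a median of 7 in the 32851 promoter windows of the table. Neither window matched the core of the interferon-stimulated response element, 2 runs of TTTC with any 2 bases between them, on either strand, and 3.44% of all windows did. Neither held CGGAAG, the core of Ets factor sites, on either strand, which 16.9% of all windows held.

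All fibroblast markers with a value were at 1 FPKM or more in every total RNA library (7 of 7) and siRNA library (9 of 9), as were 7 of 8 in the inhibitor libraries, and Pecam1, Cdh5, Ptprc, Itgam, Pou5f1 and Zfp42 (endothelial, haematopoietic and embryonic stem cell markers) were under 1 FPKM in all libraries. The haematopoietic list's Cd68 was at 1 FPKM or more in every siRNA and inhibitor library, the endothelial marker Kdr was not under 1 FPKM in every inhibitor library, and the summed epithelial markers ran from 0.17 to 86.2 FPKM over all libraries. The embryonic stem cell marker Nanog was not under 1 FPKM in every library of any experiment. With Nanog, the summed embryonic stem cell markers were 0.21 to 0.36 FPKM in untreated total RNA libraries and 1.13 to 1.24 in long-term KO. Setdb1 itself, measured over the whole gene and not over the deleted part, lay at 5.16 to 5.95 FPKM in untreated total RNA libraries, at 4.16, 4.2 and 6.52 at day 5, and at 6.96 to 7.32 in long-term KO, so that its whole-gene FPKM did not check the labels. In the inhibitor experiment Setdb1 was listed at 0 in 3 of the 4 libraries with 4OHT and at 5.30 in the other one, 4OHT day 6 replicate 2. Dnmt1 lay at 77 ± 5.07 FPKM with siCtrl and 11.4 ± 1.12 with siDnmt1 (SD, n = 2 each). The library labelled 4OHT + siCtrl replicate 2 stood apart from its replicate, with Irf7, an interferon-induced transcription factor, at 14.6 FPKM against 279, and values are given below with and without it. For PD0325901 replicate 2, the sample's GEO title and treatment name PD0325901 alone, as does the description line that heads its data, but the title line there names the combination with 4OHT. The GEO title was followed, and Irf7 was at 4.02 FPKM there, beside 4.75 in PD0325901 replicate 1 and 266 and 321 in the 4OHT + PD0325901 libraries.

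In total RNA, both genes had higher levels in every library after Setdb1 deletion than in any untreated library. Resf1 was at 22.1, 22.6 and 21.7 FPKM in untreated cells, at 124, 113 and 133 at day 5, and at 57.3, 57.7 and 57.7 in long-term KO. Atf7ip was at 8.5, 8.78 and 8.24 FPKM in untreated cells, at 22.3, 23.8 and 25.3 at day 5, and at 16.9, 17.2 and 19 in long-term KO. The 3 groups overlapped in neither gene, and both had their highest levels at day 5 and intermediate levels in long-term KO.

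The mean level of Resf1 was 22.1 ± 0.45 FPKM in untreated cells and 123 ± 10.4 at day 5 (SD, n = 3), a ratio of 5.57 and a difference of 2.47 ± 0.06 (SE) on the log2(FPKM + 0.1) scale. That difference was higher than those of 98.9% of the 8912 genes compared, and 95 genes had a higher one. Atf7ip had a mean of 8.51 ± 0.27 FPKM in untreated cells and 23.8 ± 1.5 at day 5, a ratio of 2.80 and a log2 difference of 1.47 ± 0.06, at the 97.5th percentile. In long-term KO Resf1 had a mean of 57.6 ± 0.21 FPKM, a ratio to untreated of 2.60 and a log2 difference of 1.38 ± 0.06. Atf7ip there had a mean of 17.7 ± 1.13 FPKM, a ratio of 2.08 and a log2 difference of 1.04 ± 0.06. Both comparisons share the 3 untreated libraries. Groups did not overlap, with the higher values after deletion, for 25.3% of all genes at day 5 and for 41.1% in long-term KO. The summed FPKM of the fibroblast markers was 1377 to 1462 at day 5 against 1685 to 1699 in untreated cells, and that of the epithelial markers 4.19 to 5.27 against 1.22 to 1.56, and their part in the results was not tested. In bulk RNA, a change in the share of cells that express a gene and a change in RNA per cell cannot be told apart.

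**Figure D1:**
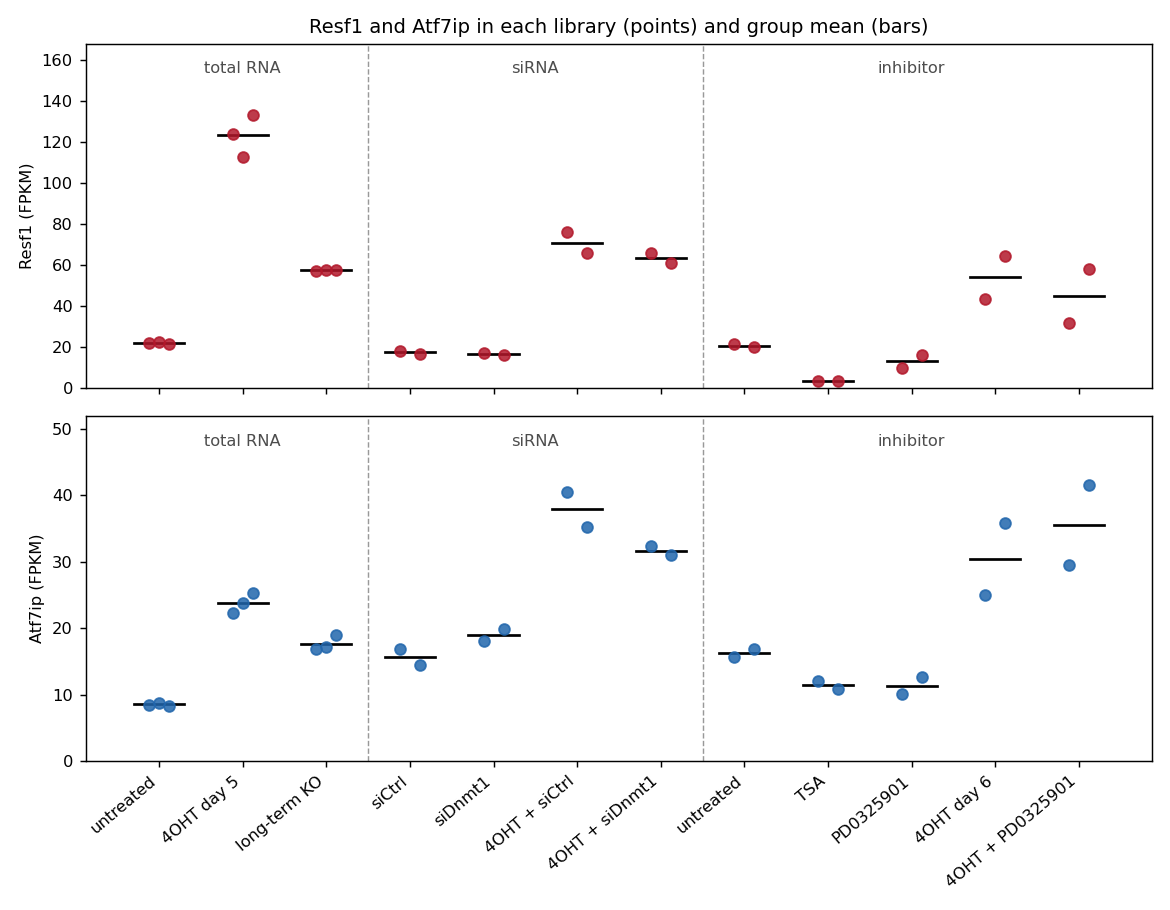
FPKM of Resf1 (upper panel) and Atf7ip (lower panel) in all 27 libraries, with 1 point per library, bars at the group means and dashed lines between the 3 experiments. Groups with 4OHT lie above the group without it in each experiment for both genes, and TSA gives the lowest Resf1 levels, at 3.45 and 3.41 FPKM.

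The same libraries held transcription before both genes after deletion. The assembly of each library lists loci outside known genes, and the 25 kb before each of the 2 starts holds no gene of the mm9 annotation. A locus in that window, or a row of the gene itself that begins more than 1 kb before the start, was counted. For Atf7ip this was found in 0 of 3 untreated libraries, in 3 of 3 at day 5 and in 3 of 3 of long-term KO. For Resf1 the counts were also 0 of 3, 3 of 3 and 3 of 3. Of the 8255 genes with a known strand that could be counted so, 21 had this pattern (0.254%), and Resf1 and Atf7ip are among them. The window was set after the loci near these genes had been seen, so the share is a description. Over the genome, loci that overlap no named gene numbered 4513 to 5114 in untreated libraries. They numbered 5350 to 5804 at day 5 and 4964 to 5327 in long-term KO, and the part of this in the pattern was not tested.

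Before Atf7ip, assembled transcription began at nearly the same base in separate libraries. Within 15 bases of chr6:136449601, 17.8 kb before the annotated start, a locus began in day 5 replicates 1 and 3 and in long-term KO replicates 2 and 3. In day 5 replicate 1 the row of Atf7ip also began there, at chr6:136449604, so that the assembly joined that position to the gene. The loci that began there were at 3.27 and 3.06 FPKM in the day 5 libraries and at 1.18 and 1.21 FPKM in the long-term KO libraries. These are lower than the level of Atf7ip in the same libraries. Day 5 replicate 2 had 5 loci in the window and long-term KO replicate 1 had 2, of which the first began at chr6:136449496, and none of these began at the shared base.

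Before Resf1, the row of the gene began at chr6:149245653 in day 5 replicate 2 and at chr6:149245660 in day 5 replicate 3, 12.3 kb before the annotated start. Resf1 was at 113 and 133 FPKM in these libraries and at 124 FPKM in day 5 replicate 1, where its row began at the annotated start. The other 4 libraries after deletion held separate loci nearer to the gene, at 0.30 to 3.09 FPKM. The strand of a locus without a splice junction is not known from these files.

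In the other experiments, for which the labels name no removal of rRNA, such transcription was found before Atf7ip in 3 libraries, all with 4OHT. These were both 4OHT day 6 libraries and 4OHT + siDnmt1 replicate 1. The row of Atf7ip began at chr6:136450443 in 4OHT day 6 replicate 1, 16.9 kb before the annotated start. Over all experiments, 9 of 14 libraries with 4OHT and 0 of 13 without it had transcription before Atf7ip. For Resf1 the 6 libraries with it after deletion were all of total RNA. In the siRNA and inhibitor experiments it was found before Resf1 in 0 of 8 libraries with 4OHT and in 1 of 10 without it. That 1 library was PD0325901 replicate 1, where the row of Resf1 began at chr6:149245668. The paper describes the siRNA libraries as mRNA read from single ends and the total RNA libraries as read in pairs. The part of this difference in these counts was not tested.

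The mm9 windows from 200 bases before to 99 bases after the shared positions are shown because they hold the positions where transcription before the 2 genes was assembled, and the capitals mark TATANAA, the letters of a TATA box, and AATAAA, the letters of a polyadenylation signal. The window before Resf1 is chr6:149245453-149245752 and the window before Atf7ip chr6:136449401-136449700, both on the plus strand.
Window before Resf1: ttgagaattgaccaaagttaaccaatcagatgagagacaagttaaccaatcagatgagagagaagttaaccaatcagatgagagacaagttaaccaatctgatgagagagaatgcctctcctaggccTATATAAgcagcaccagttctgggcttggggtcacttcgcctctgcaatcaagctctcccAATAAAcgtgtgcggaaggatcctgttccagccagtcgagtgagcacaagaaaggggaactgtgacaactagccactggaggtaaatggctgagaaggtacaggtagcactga
Window before Atf7ip: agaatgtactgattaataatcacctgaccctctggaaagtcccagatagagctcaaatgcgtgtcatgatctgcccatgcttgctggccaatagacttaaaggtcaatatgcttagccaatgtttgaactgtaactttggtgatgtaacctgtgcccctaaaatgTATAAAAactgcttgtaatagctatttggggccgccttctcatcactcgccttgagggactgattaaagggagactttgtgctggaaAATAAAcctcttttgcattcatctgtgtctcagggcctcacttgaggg
The letters TATANAA stood 73 bases before the assembled position for Resf1 and 35 bases before it for Atf7ip, on the plus strand. The letters AATAAA stood 13 bases before the position for Resf1 and 52 bases after it for Atf7ip. On either strand, 11.3% of all promoter windows of the same length held TATANAA and 19.6% held AATAAA. Both motifs were chosen after the windows had been read, and whether the windows belong to repeated elements was not analysed here. The core of Ets factor sites, CGGAAG, stood in the window before Resf1 and not in the window before Atf7ip, beside 16.9% of all promoter windows. Its part in the results was not tested. The annotated promoters of both genes lacked TATANAA, though that of Resf1 held TATAAAT, which differs from it only in the last base. AATAAA stood once in the promoter of Atf7ip and was absent from that of Resf1. The promoters' CG counts of 13 and 29 were higher than those of the windows before Resf1 and Atf7ip, which held 4 and 3.

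**Figure D2:**
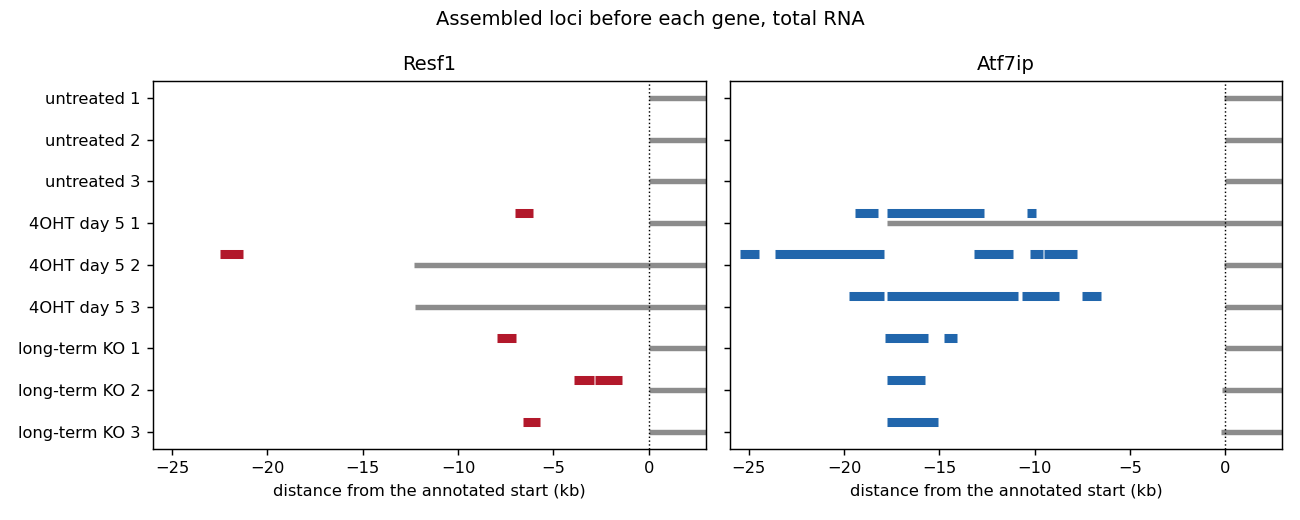
Assembled transcription before Resf1 (left) and Atf7ip (right) in the 9 total RNA libraries, against the distance in kb from the annotated start (dotted line). Coloured bars are loci outside known genes and grey bars the row of the gene; the 3 untreated libraries show none of the former, and each of the 6 libraries after deletion shows a coloured bar or a grey bar that extends to the left.

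In the siRNA experiment, both genes were again higher with 4OHT, and depletion of the maintenance DNA methyltransferase Dnmt1 came with small differences. Resf1 was at 18.2 and 16.9 FPKM with siCtrl, at 17.2 and 16.4 with siDnmt1, at 76.1 and 65.9 with 4OHT + siCtrl, and at 66.0 and 61.2 with 4OHT + siDnmt1. Atf7ip was at 16.8 and 14.4 FPKM with siCtrl, at 18.1 and 19.8 with siDnmt1, at 40.6 and 35.2 with 4OHT + siCtrl, and at 32.3 and 31.0 with 4OHT + siDnmt1. Libraries with and without 4OHT did not overlap in either gene.

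The ratio of 4OHT + siCtrl to siCtrl was 4.05 for Resf1, with means of 71.0 ± 7.24 and 17.5 ± 0.97 FPKM (SD, n = 2), and the log2 difference was 2.01 ± 0.11 (SE). For Atf7ip the ratio was 2.43, with means of 37.9 ± 3.80 and 15.6 ± 1.73 FPKM, and the log2 difference was 1.28 ± 0.12. Without 4OHT + siCtrl replicate 2 the log2 differences were 2.11 for Resf1 and 1.38 for Atf7ip. Groups did not overlap in this direction for 34.3% of all genes. The log2 difference of siDnmt1 against siCtrl was -0.06 ± 0.11 for Resf1, whose groups overlapped, and 0.28 ± 0.12 for Atf7ip, whose siDnmt1 libraries were both higher, as were those of 27% of all genes. With median-ratio scaling of the libraries the Resf1 difference turned to 0.03. The log2 difference of 4OHT + siDnmt1 against 4OHT + siCtrl was -0.16 ± 0.11 for Resf1, with overlapping groups, and -0.25 ± 0.12 for Atf7ip, with both 4OHT + siDnmt1 libraries lower, as for 23.4% of all genes. Without 4OHT + siCtrl replicate 2 these differences were -0.26 and -0.36. The summed FPKM of the fibroblast markers was 2326 to 3659 with 4OHT + siCtrl against 4960 to 5060 with siCtrl, and its part in the results was not tested. That of the epithelial markers was 55.4 to 55.8 with siDnmt1 against 0.68 to 0.99 with siCtrl, and 53.5 to 86.2 with 4OHT + siDnmt1 against 1.12 to 12.6 with 4OHT + siCtrl, with Cdh1 under 1 FPKM throughout, and its part in the results was not tested. The comparisons of the siRNA experiment share the siCtrl or the 4OHT + siCtrl libraries.

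In the inhibitor experiment, Resf1 had its lowest levels with TSA. It was at 21.5 and 20.1 FPKM in untreated cells, at 3.45 and 3.41 with TSA, at 10.1 and 16.3 with PD0325901, at 43.8 and 64.3 at 4OHT day 6, and at 32.1 and 58.3 with 4OHT + PD0325901. Atf7ip was at 15.7 and 16.9 FPKM in untreated cells, at 12 and 10.8 with TSA, at 10.0 and 12.7 with PD0325901, at 25 and 35.9 at 4OHT day 6, and at 29.5 and 41.6 with 4OHT + PD0325901. For both genes the untreated libraries lay above those of either inhibitor and below those with 4OHT.

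With TSA, Resf1 was 6.07-fold lower than in untreated cells, with means of 3.43 ± 0.03 and 20.8 ± 1.04 FPKM (SD, n = 2) and a log2 difference of -2.57 ± 0.33 (SE), at the 2.17th percentile of the 11434 genes compared. Atf7ip was 1.43-fold lower, with means of 11.4 ± 0.86 and 16.3 ± 0.85 FPKM, a log2 difference of -0.52 ± 0.23 and the 26.1st percentile. TSA libraries were lower than untreated ones without overlap for 38.3% of all genes. The summed FPKM of the haematopoietic markers was 60.6 to 67.1 with TSA against 4.27 to 4.90 in untreated cells, mostly a matter of the macrophage and lysosome gene Cd68, since Ptprc and Itgam stayed under 1 FPKM, while that of the epithelial markers was 31.3 to 32.4 against 1.28 to 1.39, and their part in the results was not tested. With PD0325901, Resf1 was 1.57-fold lower (log2 difference -0.69 ± 0.33) and Atf7ip 1.44-fold lower (-0.53 ± 0.23), and libraries did not overlap in this direction for 38.2% of all genes. Without PD0325901 replicate 2 the differences were -1.03 for Resf1 and -0.70 for Atf7ip.

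At 4OHT day 6 the ratio to untreated cells was 2.60 for Resf1, with 54.1 ± 14.5 FPKM and a log2 difference of 1.35 ± 0.33, and 1.86 for Atf7ip, with 30.4 ± 7.70 FPKM and a log2 difference of 0.87 ± 0.23. Groups did not overlap in this direction for 34.4% of all genes. The summed FPKM of the fibroblast markers was 2433 to 2498 at 4OHT day 6 against 2957 to 3208 in untreated cells, and its part in the results was not tested. Replicate 2 was the higher of the 4OHT day 6 libraries, of the 4OHT + PD0325901 libraries and of the PD0325901 libraries for both genes. The log2 difference of 4OHT + PD0325901 against 4OHT day 6 was -0.29 ± 0.33 for Resf1 and 0.22 ± 0.23 for Atf7ip, and the groups overlapped in both. Between libraries of the same replicate number, however, Resf1 was lower and Atf7ip higher with 4OHT + PD0325901 in both replicates. Whether equal numbers mark paired cultures is not given in the labels, and these directions were not tested.

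**Figure D3:**
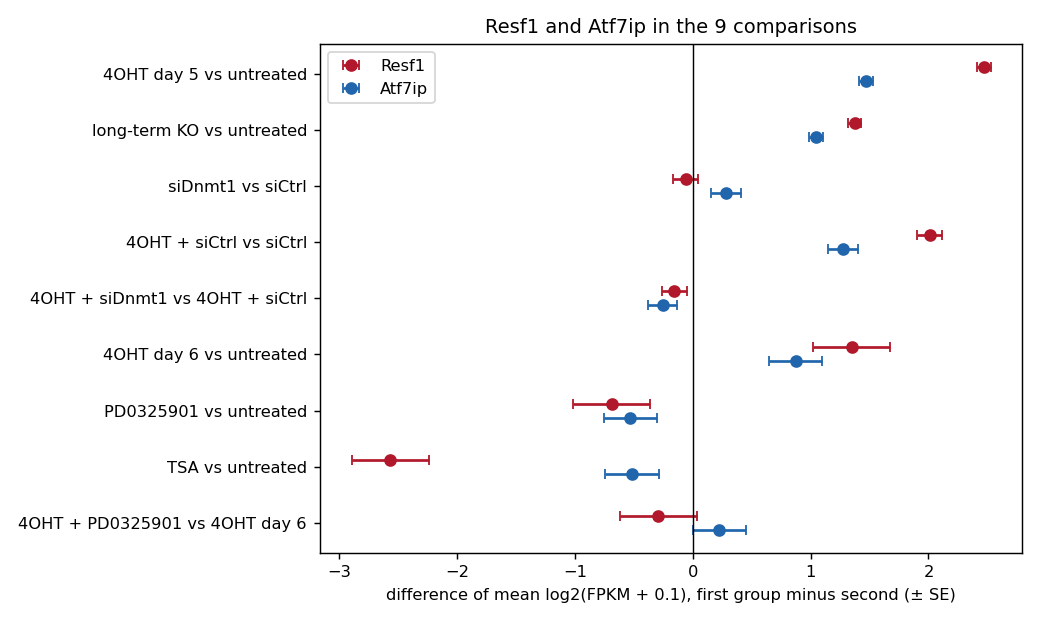
Difference of the mean log2(FPKM + 0.1) of Resf1 and Atf7ip in the 9 comparisons, first group minus second, with the SE of the limma fit as bars. In the 4 comparisons that set cells after deletion against cells without 4OHT, both genes lie above 0 and Resf1 above Atf7ip, from 1.35 to 2.47 for Resf1 and from 0.87 to 1.47 for Atf7ip.

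Because FPKM are per length, the levels of the 2 genes can be set beside each other within a library. The ratio of Resf1 to Atf7ip was 2.57 to 2.63 in untreated total RNA libraries, 4.73 to 5.57 at day 5 and 3.04 to 3.40 in long-term KO. In the siRNA experiment it was 1.08 to 1.17 with siCtrl, 0.83 to 0.95 with siDnmt1, 1.87 to 1.88 with 4OHT + siCtrl and 1.97 to 2.04 with 4OHT + siDnmt1. In the inhibitor experiment it was 1.19 to 1.37 in untreated cells, 1.75 to 1.79 at 4OHT day 6, 1.09 to 1.40 with 4OHT + PD0325901, 1.01 to 1.29 with PD0325901 and 0.29 to 0.32 with TSA. Resf1 was thus the higher of the pair in all groups but siDnmt1 and TSA. In order of the mean, Resf1 in the inhibitor experiment went from TSA through PD0325901, untreated and 4OHT + PD0325901 to 4OHT day 6, of which neighbours only the last 2 overlapped. Atf7ip went from PD0325901 through TSA, untreated and 4OHT day 6 to 4OHT + PD0325901, and both the first 2 and the last 2 groups overlapped.

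The deposited 95% intervals cover the error of estimation within 1 library. Their half-width for Resf1 was 2.29% to 16.3% of the FPKM over the 27 libraries. For Atf7ip it was over 20% in 7 of the 27 libraries and 4.06% to 8.62% in the other 20. The interval of Atf7ip ran from 0 to 11692 FPKM in siDnmt1 replicate 1 and from 0 to 16115 FPKM in 4OHT day 6 replicate 2, so that the estimation error of these single values is not bounded usefully.

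The levels of Resf1 and Atf7ip can be set beside those of 6 interferon-induced genes (Irf7, Isg15, Ifit1, Oasl2, Mx1 and Rsad2), which were chosen after their values had been seen and were not tested. These encode antiviral effectors and regulators of the interferon response. At day 5 their ratios to untreated cells ran from 34.1 to 72.3 with a median of 41.2, beside 5.57 for Resf1 and 2.80 for Atf7ip. In the library 4OHT + siCtrl replicate 2 all 6 were 5.77-fold to 19.2-fold lower than in replicate 1. In the same pair of libraries Resf1 was 1.16-fold lower and Atf7ip 1.15-fold lower. Resf1 at 65.9 FPKM and Atf7ip at 35.2 FPKM in replicate 2 were above both siCtrl libraries, as were Isg15, Ifit1, Mx1 and Rsad2. Oasl2 lay between the siCtrl libraries, and Irf7 lay below both.

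With siDnmt1 the ratios of the 6 genes to siCtrl ran from 1.59 to 5.15, beside 0.96 for Resf1 and 1.22 for Atf7ip. With 4OHT + PD0325901 their ratios to 4OHT day 6 ran from 1.22 to 1.59, beside 0.84 for Resf1 and 1.17 for Atf7ip. With TSA they ran from 0.11 to 5.68, beside 0.16 for Resf1 and 0.70 for Atf7ip.

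**Figure D4:**
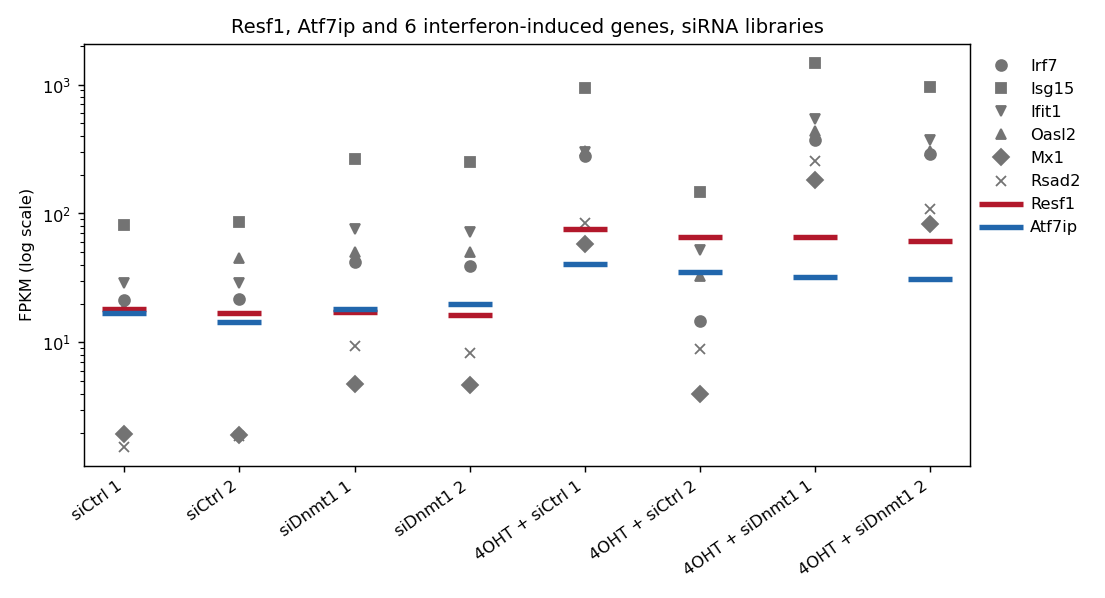
FPKM on a log axis of Resf1, Atf7ip (coloured dashes) and 6 interferon-induced genes (grey symbols) in the 8 siRNA libraries. In 4OHT + siCtrl replicate 2 the grey symbols lie 5.77-fold to 19.2-fold below those of replicate 1, while Resf1 and Atf7ip lie within 1.16-fold.

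Other genes of the same pathway were read from a list of 30, of which 21 could be tested in total RNA and 26 in each other experiment. A further 8 in total RNA, Dnmt1 among them, and 3 in each other experiment had no value of their own in every library. The list holds partners and recruiters of Setdb1, the HUSH complex, HP1 proteins, other H3K9 methyltransferases and other silencers of retroelements. Atf7ip2, the paralogue of Atf7ip, was at 0 to 0.88 FPKM in all libraries and was not tested. Calls are by limma with Benjamini-Hochberg adjustment over all genes tested.

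At day 5, 5 genes of the list rose and 3 fell of 21 tested, while 19% and 18.4% of all genes did. The HUSH subunit Fam208a (TASOR) rose from 7.66 ± 0.33 to 13.1 ± 0.53 FPKM (adjusted p = 3.7e-05). The HUSH effector Morc2a rose from 18.1 ± 0.79 to 31.1 ± 6.79 FPKM (adjusted p = 0.0066). Daxx, a chaperone of histone H3.3, rose from 13.9 ± 0.30 to 21.8 ± 0.65 FPKM (adjusted p = 1.1e-05). The log2 differences of the tested list ran from -0.43 to 0.77 with a median of -0.05, beside a median of 0.00 over all genes and 2.47 and 1.47 for Resf1 and Atf7ip. In long-term KO, 8 rose and 6 fell of 21, beside 38.1% and 29.8% of all genes. The H3K9 methyltransferases Suv39h1 and Suv39h2 fell, with log2 differences of -0.62 and -0.77 (adjusted p = 8.8e-05 and 0.0026), and the histone demethylase Kdm1a rose by 0.62 (adjusted p = 4.8e-05). The list ran from -0.77 to 0.62 in this comparison, with a median of -0.04 beside 0.07 over all genes. With median-ratio scaling the split was 4 higher and 8 lower at day 5 and 6 higher and 8 lower in long-term KO.

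With 4OHT + siCtrl, 2 genes rose and 1 fell of 26 tested, beside 7.21% and 6.5% of all genes. The zinc finger protein Zfp809, which recruits the silencing machinery to proviral DNA, rose by 1.02 on the log2 scale (adjusted p = 0.026), Morc2a rose by 0.63 (adjusted p = 0.011) and the HP1 protein Cbx3 fell by 0.50 (adjusted p = 0.033). None of these calls held when only the 2 groups entered the fit, and the count was 7 without 4OHT + siCtrl replicate 2. With median-ratio scaling 2 were higher and 2 lower. At 4OHT day 6, 3 rose and 2 fell of 26, beside 12.2% and 12.7% of all genes. Daxx rose from 16.5 ± 1.21 to 63.4 ± 22.4 FPKM (adjusted p = 0.0016), Sp1, a transcription factor that pairs with Atf7ip, fell by 0.61 on the log2 scale (adjusted p = 0.029), and the chromatin remodeller Atrx fell by 0.52 (adjusted p = 0.049). No gene of the list was called lower without either untreated library or without 4OHT day 6 replicate 1, and the counts in all were then 1, 1 and 2, while 3 were called without 4OHT day 6 replicate 2. Setdb1 and its recruiter Trim28 gave values that did not pass the test at day 5 (log2 differences -0.19 and -0.05), and Trim28 rose by 0.46 at 4OHT day 6 (adjusted p = 0.019).

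Dnmt1 was the only gene of the list called with siDnmt1 against siCtrl, where 3.1% of all genes rose and 4.82% fell, and with 4OHT + siDnmt1 against 4OHT + siCtrl, where 1.1% rose and 0.935% fell. It fell with log2 differences of -2.75 and -2.72 (adjusted p = 0.00016 in both). With only the 2 groups in the fit, 11 genes were called for siDnmt1. Dnmt1 was also the only gene called for 4OHT + PD0325901 against 4OHT day 6, where it fell by 0.47 (adjusted p = 0.037), while 4.32% of all genes rose and 2.66% fell. With PD0325901, 4 genes fell and 0 rose of 26, beside 7.8% and 5.94% of all genes. With median-ratio scaling 3 were lower and 1 higher. The count was 0 without either untreated library, 1 without PD0325901 replicate 2 and 7 with only the 2 groups in the fit. The 4 included the chromatin assembly subunit Chaf1a, which fell by 0.55 (adjusted p = 0.018), the HP1 protein Cbx5, which fell by 0.54 (adjusted p = 0.034), and Uhrf1, the partner of Dnmt1 in maintenance methylation, which fell by 0.52 (adjusted p = 0.0056).

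With TSA, 5 genes rose and 12 fell of 26, beside 31.4% and 24.4% of all genes, and with median-ratio scaling 3 were higher and 13 lower. The largest differences were those of Cbx5, which fell by 1.73 (adjusted p = 4.2e-05), Trim28, which fell by 1.56 (adjusted p = 2.7e-05), and Atrx, which fell by 1.11 (adjusted p = 0.00077). The list ran from -1.73 to 0.68 with a median of -0.37 beside 0.10 over all genes, and the difference of Resf1, -2.57, lay below all of it.

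**Figure D5:**
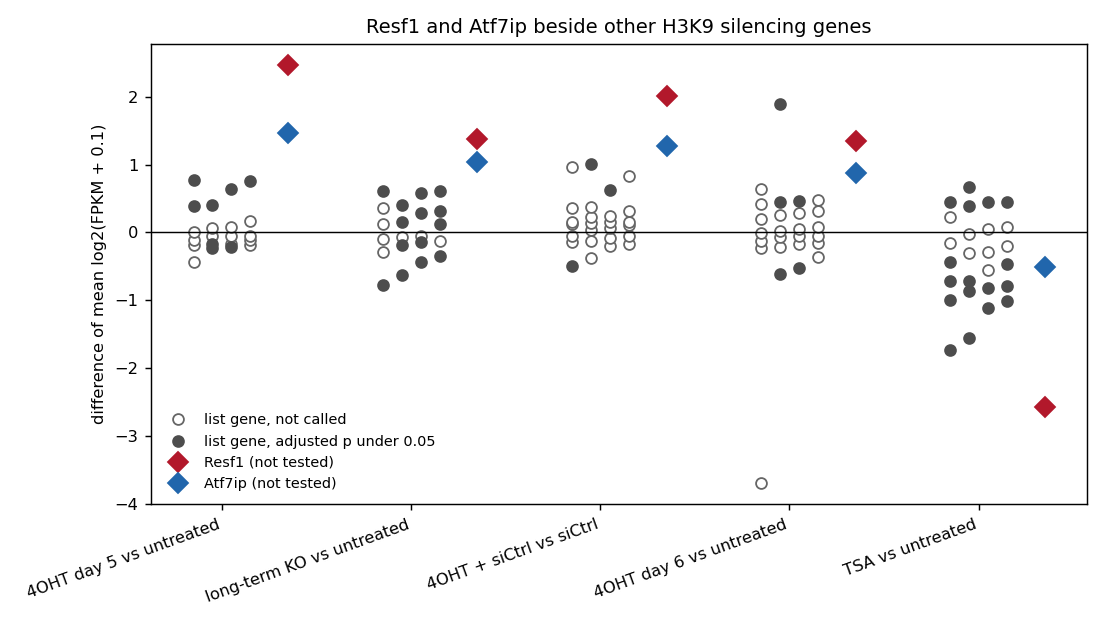
Difference of the mean log2(FPKM + 0.1) of the tested list genes (circles, filled where the adjusted p was under 0.05) and of Resf1 and Atf7ip (diamonds, not tested) in 5 comparisons. The diamonds lie above every circle at day 5 and in long-term KO, while Daxx at 1.89 lies above both at 4OHT day 6 and Resf1 lies below every circle with TSA; the open circle at -3.69 is Setdb1, listed at 0 in 1 of 2 libraries.

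Over the 27 libraries, with each log2 value taken minus the mean of its experiment, each of the 2 genes was among the 3 closest to the other of 8479 genes compared. Pearson's r between Resf1 and Atf7ip was 0.92, which gave Resf1 rank 1 for Atf7ip and Atf7ip rank 3 for Resf1. For Resf1 the zinc finger gene Zfp37 (r = 0.93) and the splicing factor gene Bcas2 (r = 0.92) were closer. For Atf7ip the lectin gene Cd209c (r = 0.90) and the predicted gene Gm13212 (r = 0.90) followed. The points share 1 cell line and come in groups of replicates, and 14 of the 27 libraries had received 4OHT. Zfp37 had ratios of 4.53 at day 5, 5.97 with 4OHT + siCtrl, 5.90 at 4OHT day 6 and 0.19 with TSA. It also had 2.70 with siDnmt1, where Resf1 had 0.96, and 1.43 in long-term KO, where Resf1 had 2.60. With 4OHT + PD0325901 against 4OHT day 6 it had 0.52, where Resf1 had 0.84. Interferon-induced genes stood among the 10 closest for both, with Ifit1 at rank 5 for Resf1 (r = 0.89) and Parp14, Oasl2, Ifit1, Rsad2, Mx1 and Isg15 from rank 4 to 10 for Atf7ip. The r of Setdb1 was -0.45 with Resf1 and -0.49 with Atf7ip, with Setdb1 listed at 0 in 3 libraries.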

How the data were processed

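RNA-seq libraries of Setdb1 cKO iMEFs were analysed from the FPKM that the authors deposited for each library. Per the submitters' processing notes, reads were aligned to mm9 with TopHat2 2.0.12 and assembled with Cufflinks; reads with several hits were kept at 1 position, which can lower values over repeats. The FPKM are normalized to transcript length and library size, and the deposited values hold a 95% interval. The files hold no counts, so the depth of each library is unknown. The paper gives an approximate read number per sample for the total RNA libraries, which were read in pairs. It gives none for the siRNA libraries, which were read from single ends. The authors' tables of group comparisons hold fold changes and p-values and were not used.

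Total RNA loci carry no gene names and were matched by position to the loci of the named libraries: a locus had to cover at least 95% of 1 gene, and loci covering several genes were left out. On the log2(FPKM + 0.1) scale, limma 3.58.1 (R 4.3.3) fitted each experiment apart, with all its groups and trended variances. A gene entered where 3 total RNA libraries, or 2 libraries elsewhere, reached 1 FPKM (8912, 10693 and 11434 genes). Genes were called at a two-sided adjusted p-value under 0.05. A log2 difference with the pseudocount understates changes of low genes. The script was tested on simulated data. The other steps used Python 3.11.15 with pandas 2.3.3 and matplotlib 3.10.9.

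The 2 genes and the lists were chosen with earlier results of these data known. Named list genes are the up to 3 called genes with the largest differences in each comparison; genes similar to each member are the 3 with the highest Pearson's r. Alternatives were the pseudocount, the filter, median-ratio scaling, the groups in the fit, a replicate block, a fold limit, the locus overlap and leaving out each library. RefSeq promoters were of GRCm38.p6; genome windows and gene positions were of mm9. Some results are not reported here.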

Additional observations from a re-analysis of the deposited data

Results flagged for a closer look

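Of the list genes, 3 reported here went in both directions over day 5, 4OHT + siCtrl and 4OHT day 6. Each had every library of the 4OHT group on one side of its controls in one of these comparisons and on the other side in another. The difference between experiments was not tested. Mphosph8, a HUSH subunit that binds methylated H3K9, had log2 differences of 0.38 at day 5 and 0.36 with 4OHT + siCtrl but -0.15 at 4OHT day 6. Suv39h1 had 0.17 at day 5 and -0.12 at 4OHT day 6. In long-term KO, of the same experiment as day 5, it had -0.62, also without overlap, so its direction differed within total RNA too. Ehmt2, an H3K9 dimethyltransferase, had 0.16 with 4OHT + siCtrl and -0.23 at 4OHT day 6. Resf1 and Atf7ip were higher after deletion in all 3 experiments.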

How the results depend on the processing

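The differences of Resf1 and Atf7ip kept their sign in 152 of 156 values under the alternatives. The exceptions were Resf1 with siDnmt1 under median-ratio scaling (0.0308), and 4OHT + PD0325901 against 4OHT day 6 without 1 library, where Resf1 ran from -0.72 to 0.13 and Atf7ip from -0.04 to 0.48. Without 1 library, Resf1 and Atf7ip ran from 2.41 to 2.53 and 1.43 to 1.52 at day 5, from 1.36 to 1.39 and 0.99 to 1.08 in long-term KO, from -0.11 to -0.00264 and 0.17 to 0.40 with siDnmt1, from 1.91 to 2.11 and 1.16 to 1.39 with 4OHT + siCtrl, from -0.26 to -0.05 and -0.36 to -0.15 with 4OHT + siDnmt1, from 1.07 to 1.62 and 0.61 to 1.13 at 4OHT day 6, from -1.03 to -0.35 and -0.70 to -0.36 with PD0325901, and from -2.62 to -2.52 and -0.59 to -0.44 with TSA. With a pseudocount of 1, Atf7ip was 1.38 at day 5 and 0.97 in long-term KO, and Resf1 1.34 in long-term KO and -2.30 with TSA. With median-ratio scaling, Resf1 was 1.30 in long-term KO and -2.66 with TSA, and Atf7ip 0.97 and -0.61. The cause was not tested.

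The count of list genes called was 0 at day 5, 0 in long-term KO, 1 with 4OHT + siCtrl, 1 at 4OHT day 6, 0 with PD0325901, 4 with TSA and 0 with 4OHT + PD0325901 under a fold of at least 2. With only the 2 groups in the fit it was 11 with siDnmt1, 0 with 4OHT + siCtrl, 7 with PD0325901 and 0 with 4OHT + PD0325901. With median-ratio scaling the split was 1 higher and 3 lower with PD0325901, 2 and 2 with 4OHT + siCtrl, and 3 and 13 with TSA. Without 1 library the count ran from 7 to 10 at day 5, 13 to 14 in long-term KO, 0 to 7 with 4OHT + siCtrl (0 without either siCtrl library, 7 without either 4OHT + siCtrl library), 1 to 9 with 4OHT + siDnmt1 (9 without 4OHT + siCtrl replicate 1, 2 without replicate 2), 1 to 3 at 4OHT day 6 (lowest without either untreated library), 0 to 3 with PD0325901 (0 without either untreated library, 1 without PD0325901 replicate 2), 10 to 14 with TSA (10 without untreated replicate 2) and 0 to 2 with 4OHT + PD0325901. A group left with 1 library was assumed to vary like the others.

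Replicate numbers gave no sign of pairing outside 4OHT + PD0325901 against 4OHT day 6, since the correlation of deviations was between -0.07 and 0.06. In that comparison the correlation was 0.25, and each fit without 1 of its libraries left a library without its partner of the same number. With the replicate number as a block, the SE there was 0.25 for Resf1 and 0.18 for Atf7ip. With the replicate number as a block, the differences of Resf1 and Atf7ip were the same, and the list counts were 7 at day 5, 14 in long-term KO, 2 with 4OHT + siCtrl, 7 at 4OHT day 6, 6 with PD0325901, 18 with TSA and 1 in the other 3. In the count of genes with transcription before the start, chosen after seeing the data as were its alternatives, 11 genes had the pattern in a window of 10 kb, which held neither Resf1 nor Atf7ip, and 33 in one of 50 kb, which held both. With separate loci alone it was 18, with Atf7ip but without Resf1. Depth could not be assessed from FPKM, and Atf7ip had wide intervals in 7 libraries.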
